A study of Mus musculus with 6 samples.

Results

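The cell-surface receptors that hold a cell to its extracellular matrix were followed in mouse embryonic stem cells in which the transcription factor Sox17 could be switched on. They were 8 genes, chosen by gene symbol: the integrin alpha chains Itga3, Itga5, Itga6 and Itgav, the integrin beta chains Itgb1, Itgb3 and Itgb5, and Dag1, which encodes dystroglycan. The arrays carried 11 probes for them, of 25697 probes and 16593 named genes in all, with 2 probes each for Itga5, Itgb1 and Dag1 (probe 1 is the brighter) and 1 for each other gene. There were 4 groups on 6 bead arrays, made from total RNA. Sox17_dox (n = 2) was a pair of independently derived Sox17-inducible lines given doxycycline, and Sox17_untreated (n = 2) was the same lines without it. KH2_dox (n = 1) and KH2_untreated (n = 1) were the control line KH2 with and without the drug. Line 1 is the inducible line that the labels leave unnumbered. The drug, which switches on the inducible gene, was used for 5 days at a dose of 1 µg/mL. All cultures were kept in serum and LIF, a factor that holds stem cells undifferentiated, with no feeder cells. The labels do not state whether a line is a single clone, nor the promoter that drives Sox17, nor whether the inducible lines were made from KH2.

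An integrin is a pair of 1 alpha and 1 beta chain, and the pair sets which matrix protein it binds. The alpha chains of Itga3 and Itga6 join the beta 1 chain of Itgb1 to bind laminins, and that of Itga5 joins it to bind fibronectin. The chain of Itgav joins those of Itgb1, Itgb3 or Itgb5 to bind vitronectin and fibronectin. Dystroglycan is cut into an outer part, whose sugar chains bind laminin, and a part that spans the membrane and links to the cytoskeleton. In the early embryo the beta 1 chain and dystroglycan take part in laying down the basement membrane beneath the primitive endoderm, the layer in which Sox17 is active.

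On each array 43.7% to 46.5% of all probes were detected, meaning brighter than the negative control beads at a detection p under 0.05. Values are normalised signals on the log2 scale, and 12373 probes detected on at least 2 arrays were tested. Normalised signals of pairs of arrays correlated with r = 0.968 to 0.989 across these probes. All 10 embryonic stem cell markers were detected on every array. The 10 primitive and parietal endoderm markers summed to 5550 and 9110 signal units in Sox17_dox (lines 1 and 2), against 2500 and 6050 in Sox17_untreated, and to 4310 in KH2_dox, against 3460 in KH2_untreated. Of these 10, 6 to 9 were detected on an array, and Pth1r on none. Lama1 and Sparc were the brightest of them on every array. The 7 blood and platelet markers on the array, cells that carry other integrin sets, gave at most 1 detected gene on an array. The brighter of 2 Sox17 probes was detected on the Sox17_dox array of line 2 alone and the other on no array. Where in the Sox17 transcript they bind is not known here, so they do not check the labels.

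The cells carried transcripts of 6 of the 8 receptors on every array. Itga3, Itga5, Itga6, Itgb1, Itgb5 and Dag1 were detected on all 6 arrays by each of their probes, which makes 9 of 11 probes, where 83.7% of all tested probes were. The laminin-binding pairs of alpha 3 or alpha 6 with beta 1, the fibronectin-binding pair of alpha 5 with beta 1, and dystroglycan thus had every chain detected. Itgav and Itgb3 were each detected on 3 arrays only. Itgav read 5.99 and 5.60 in Sox17_dox, 5.65 and 5.86 in Sox17_untreated, 5.79 in KH2_dox and 5.58 in KH2_untreated, and the line 2 Sox17_dox value and both KH2 values were below detection. Itgb3 read 5.60 and 5.42 in Sox17_dox, both below detection, 5.57 (below detection) and 5.68 in Sox17_untreated, 6.09 in KH2_dox and 5.88 in KH2_untreated. The lowest signal of a detected probe was 5.62 to 5.83 on an array, so both genes stood at the detection limit. A transcript level does not give the amount of receptor at the cell surface, and brightness was not compared between probes.

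**Figure D1:**
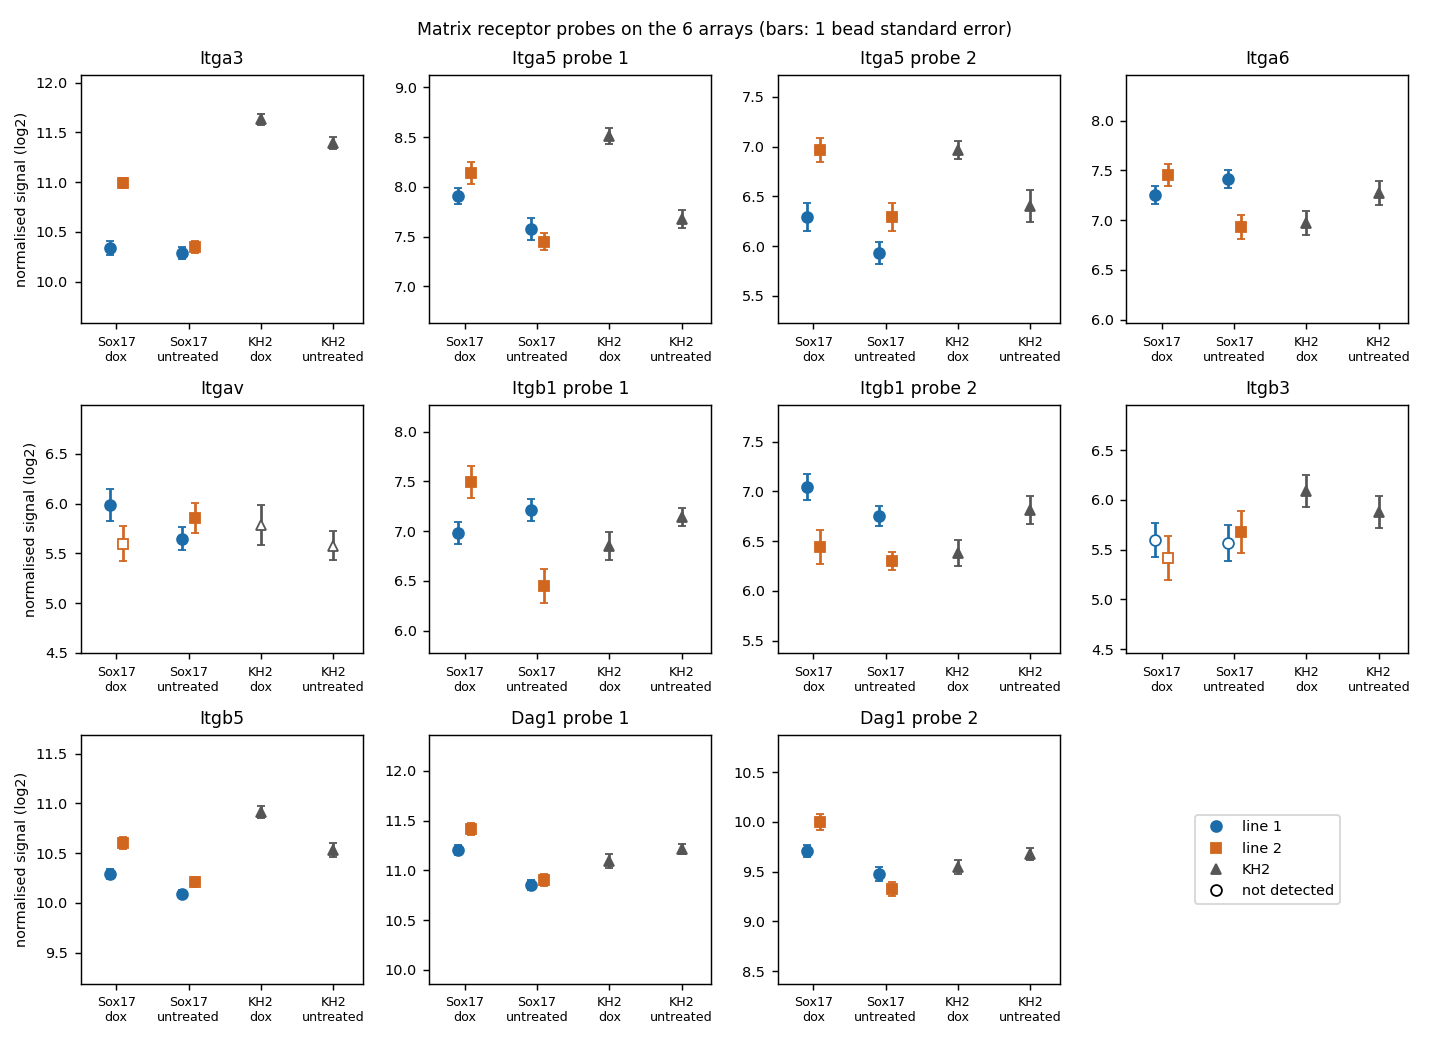
Normalised signal (log2) of each of the 11 receptor probes on the 6 arrays, by group, with 1 bead standard error as the bar and open symbols where the probe was not detected. Dag1, Itga5 (probe 1) and Itgb5 have both Sox17_dox arrays above both Sox17_untreated arrays, induced line 1 and untreated line 2 tie at 6.29 for probe 2 of Itga5, and Itga3 is higher on both KH2 arrays than on the other 4.

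Which receptors differed with induction was asked first, within the inducible lines. Dag1, Itga5 and Itgb5 read higher with doxycycline in both lines, with both Sox17_dox arrays above both Sox17_untreated arrays for each of their 5 probes. For probe 2 of Itga5 that order rested on a near tie, since induced line 1 and untreated line 2 both rounded to 6.29, with a bead error of 0.14 on each. Of all tested probes 15.8% showed this order, and 17.5% the opposite one, which no receptor probe did. None of the 8 genes passed. At an adjusted p under 0.05, 0 of 12373 probes (0.0%) were called by limma. An unadjusted p under 0.05 was reached by 528, and trend with robust moderation also gave 0 calls, here and in each comparison that follows. With the line as a block, limma called 1 probe, which was no receptor probe, and 914 had an unadjusted p under 0.05. Without the block, these tests measure the spread between the 2 lines. The blocked fit also counts the difference between the KH2 arrays with and without the drug as spread. The changes below are therefore given as sizes. They carry the bead standard error, the spread over the beads of a probe within an array, which says nothing of the spread between cultures. In these bulk cultures, fewer cells that carry a transcript and less of it per cell cannot be told apart.

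Sequence just before the transcription start is shown for Dag1, Itga5 and Itgb5, because these were the genes whose brighter probe had both induced arrays above both untreated ones. Each is the 250 bases before a start, from the RefSeq annotation of build GRCm38.p6, written 5′ to 3′ in the direction of the gene. Capitals mark GGGCGG or its reverse complement CCGCCC, the GC box known to be bound by Sp1 family factors.
Dag1, chr9:108263959-108264208, minus strand: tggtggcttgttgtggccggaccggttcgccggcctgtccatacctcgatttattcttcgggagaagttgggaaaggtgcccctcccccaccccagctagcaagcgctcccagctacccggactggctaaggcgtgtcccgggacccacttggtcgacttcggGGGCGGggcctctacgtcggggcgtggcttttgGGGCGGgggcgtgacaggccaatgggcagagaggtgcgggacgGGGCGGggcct
Itga5, chr15:103366792-103367041, minus strand: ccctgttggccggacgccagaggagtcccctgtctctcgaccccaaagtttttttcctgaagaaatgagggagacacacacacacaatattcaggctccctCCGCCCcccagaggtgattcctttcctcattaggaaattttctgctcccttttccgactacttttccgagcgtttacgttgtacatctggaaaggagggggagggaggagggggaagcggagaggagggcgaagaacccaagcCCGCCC
Itgb5, chr16:33829415-33829664, plus strand: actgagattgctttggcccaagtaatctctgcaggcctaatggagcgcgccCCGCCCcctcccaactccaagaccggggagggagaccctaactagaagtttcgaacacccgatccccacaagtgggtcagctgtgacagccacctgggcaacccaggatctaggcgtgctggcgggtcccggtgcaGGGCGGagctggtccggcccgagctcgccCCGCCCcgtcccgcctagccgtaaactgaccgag
The 3 stretches hold 3, 2 and 3 GC boxes. Promoters were listed for 6 of the 8 genes, 8 promoters in all because Itga3 and Dag1 each have 2, and the pair of Dag1 overlap. A GC box was present in 7 of these 8, against 32.7% of 32851 promoters of the same length, and their GC content ran from 50.8% to 74.8%, against a median of 52.4%. AACAAT, a core letter string of SOX factor sites, and AGATAA, one of GATA factor sites, were searched on both strands and were in 0 of the 8. They were in 9.42% and 9.99% of all promoters. A match is a string of letters and not a bound site, and the lack of one says only that these letters are not in this window.

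Dag1 was read by 2 probes that gave like values. Probe 1 read 11.20 and 11.41 in Sox17_dox (lines 1 and 2), against 10.85 and 10.90 in Sox17_untreated, and 11.09 in KH2_dox, against 11.21 in KH2_untreated. Probe 2 read 9.71 and 10.00 in Sox17_dox, against 9.48 and 9.33 in Sox17_untreated, and 9.55 in KH2_dox, against 9.68 in KH2_untreated. Induced line 2 was thus the highest array by either probe, the untreated arrays of both lines were the lowest, and the KH2 arrays lay between them, with KH2_untreated close to induced line 1. The change was 0.36 ± 0.08 (bead error) in line 1 and 0.52 ± 0.08 in line 2 by probe 1, with -0.12 ± 0.08 in KH2. By probe 2, line 1 gave 0.23 ± 0.09, line 2 gave 0.67 ± 0.10 and KH2 gave -0.13 ± 0.09. In limma the mean difference between Sox17_dox and Sox17_untreated was 0.44 ± 0.20 (SE, n = 2 against 2) with an adjusted p of 0.955 by probe 1. Its 95% interval ran from -0.04 to 0.92, and by probe 2 the difference was 0.45 ± 0.21 with an interval of -0.06 to 0.95. The endoderm markers given above also summed higher with doxycycline in both lines (5550 and 9110, against 2500 and 6050), and in KH2 (4310, against 3460). Their part in the Dag1 values was not tested.

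Itga5, the alpha chain of the fibronectin receptor, also gave like values by both probes. Probe 1 read 7.91 and 8.14 in Sox17_dox, against 7.58 and 7.45 in Sox17_untreated, and 8.51 in KH2_dox, against 7.68 in KH2_untreated. Probe 2 read 6.29 and 6.97 in Sox17_dox, against 5.93 and 6.29 in Sox17_untreated, and 6.97 in KH2_dox, against 6.40 in KH2_untreated. In each line the array with doxycycline was the higher, in KH2 as well. Probe 1 was higher by 0.33 ± 0.13 (bead error) in line 1, by 0.69 ± 0.14 in line 2 and by 0.83 ± 0.12 in KH2. Probe 2 was higher by 0.37 ± 0.18 in line 1, by 0.69 ± 0.19 in line 2 and by 0.57 ± 0.19 in KH2. The limma difference of probe 1 between Sox17_dox and Sox17_untreated was 0.51 ± 0.20 (SE, n = 2 against 2), with a 95% interval of 0.02 to 1.00 and an adjusted p of 0.955. Taking off the KH2 change left -0.32 ± 0.35 by probe 1, with an interval of -1.16 to 0.53 (limma, adjusted p = 0.996). It was -0.20 without the line 1 Sox17_dox array and -0.17 in the authors' values. By probe 2 it was -0.04 ± 0.50, with an interval of -1.24 to 1.16. The 10 fibroblast markers summed higher with doxycycline in all 3 lines too, at 10100 and 25200 signal units in Sox17_dox, against 6200 and 16100 in Sox17_untreated, and 18100 in KH2_dox, against 14500 in KH2_untreated. Acta2, the smooth muscle actin gene, made up 92.3% to 97.5% of each sum. Without it the sums were 578 and 620 in Sox17_dox, against 479 and 525 in Sox17_untreated, and 646 in KH2_dox, against 663 in KH2_untreated. Of the 10, 4 or 5 were detected on an array, and Col1a2, Col3a1, Dcn, Lum and Postn on none. Their part in the values of Itga5, and of Itga3 and Itgb5, which read higher in the same 3 lines, was not tested.

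Itgb5, a beta chain that pairs with alpha v to bind vitronectin, read 10.29 and 10.60 in Sox17_dox, against 10.09 and 10.21 in Sox17_untreated, and 10.91 in KH2_dox, against 10.53 in KH2_untreated. The change was 0.19 ± 0.07 (bead error) in line 1, 0.39 ± 0.08 in line 2 and 0.37 ± 0.09 in KH2, so the drug went with a higher signal in all 3 lines. The limma difference between Sox17_dox and Sox17_untreated was 0.29 ± 0.21 (SE, n = 2 against 2, adjusted p = 0.955, 95% interval -0.22 to 0.80). It was 0.13 without the line 2 Sox17_dox array and 0.45 without that of line 1. Its alpha partner Itgav was 0.34 ± 0.20 (bead error) higher in line 1. In line 2 it read -0.26 ± 0.23, with the induced array below detection. The bound against the detection limit, 1.11-fold lower, lay within that bead error. Another beta partner of Itgav, Itgb3, was below detection on both Sox17_dox arrays and gives no fold against Sox17_untreated. The Itgav difference between the groups of 0.04 ± 0.23 had an interval of -0.50 to 0.59. It was -0.15 without the line 1 Sox17_dox array and -0.06 without the line 1 Sox17_untreated array.

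Of the laminin-binding alpha chains, Itga3 read higher with doxycycline in all 3 lines, though in line 1 by less than the bead error. Itga6 read higher in line 2 alone. Itga3 read 10.34 and 10.99 in Sox17_dox, against 10.29 and 10.35 in Sox17_untreated, and 11.63 in KH2_dox, against 11.39 in KH2_untreated. With doxycycline it was higher by 0.05 ± 0.09 (bead error) in line 1, by 0.63 ± 0.08 in line 2 and by 0.24 ± 0.09 in KH2. Only in line 2 was that at least 1.5-fold. Itga6 read 7.25 and 7.45 in Sox17_dox, against 7.41 and 6.93 in Sox17_untreated, and 6.97 in KH2_dox, against 7.27 in KH2_untreated, and the groups overlapped. Itga6 changes were -0.16 ± 0.13 for line 1, 0.52 ± 0.16 for line 2 and -0.30 ± 0.17 for KH2. The limma difference between Sox17_dox and Sox17_untreated was 0.34 ± 0.26 (SE) for Itga3, with an interval of -0.29 to 0.98, and 0.18 ± 0.24 for Itga6, with an interval of -0.40 to 0.75. Without the line 2 Sox17_untreated array the Itga6 difference was -0.06. Without the line 2 Sox17_dox array that of Itga3 was 0.02, and without that of line 1 it was 0.67.

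The probes of Itgb1, the beta chain that joins alpha 3, alpha 5 and alpha 6, disagreed in line 1. Probe 1 read 6.98 and 7.49 in Sox17_dox, against 7.21 and 6.45 in Sox17_untreated, and 6.85 in KH2_dox, against 7.14 in KH2_untreated. Probe 2 read 7.04 and 6.44 in Sox17_dox, against 6.75 and 6.30 in Sox17_untreated, and 6.38 in KH2_dox, against 6.81 in KH2_untreated. By probe 1 the change was -0.22 ± 0.16 (bead error) in line 1 and 1.04 ± 0.24 in line 2, the largest of any receptor probe, while by probe 2 it was 0.29 ± 0.17 in line 1 and 0.14 ± 0.19 in line 2. In KH2 both probes read lower with the drug, with changes of -0.29 ± 0.17 and -0.42 ± 0.19. The probes thus had opposite signs in line 1, and the same sign but unlike sizes in line 2. The sequences they match were not used here. The limma differences between Sox17_dox and Sox17_untreated were 0.41 ± 0.32 (SE, interval -0.36 to 1.17) and 0.21 ± 0.28 (interval -0.47 to 0.90). Without the background model they were 0.25 and 0.12. Without the line 2 Sox17_untreated array they were 0.03 and -0.01, and that of probe 2 was -0.09 without the line 1 Sox17_dox array.

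Counted per line, the receptor changes of at least 1.5-fold were in line 2 and, for 1 probe, in KH2. In line 2, 5 of 10 receptor probes with a value were at least 1.5-fold higher with doxycycline, where 3.33% of all probes were. These were Itga3, both probes of Itga5, probe 1 of Itgb1 and probe 2 of Dag1. The count was 3 without background modelling and 1 at a fold of 2. In line 1 it was 0 of 10, where 5.92% of all probes were, and in KH2 1 of 10, probe 1 of Itga5, where 6.02% were. No receptor probe was at least 1.5-fold lower in any line, where 5.39% (line 1), 2.92% (line 2) and 8.49% (KH2) of all probes were. Read by the brightest probe, the receptor genes had a median change of 0.19 (line 1), 0.52 (line 2) and 0.22 (KH2), over 7 genes with a value in each, against -0.01, 0.0 and 0.02 over all tested genes. Higher by any amount were 8 of 10 probes in line 1 and 9 of 10 in line 2, where 48.9% of all probes were in each, and 5 of 10 in KH2, where 53.3% were. Probes of 1 gene share a transcript and are not independent. In both lines at once 0 of 10 were at least 1.5-fold higher and 0 lower, where 1.0% and 0.549% of all probes were. The difference between line 1 and line 2 was not tested, because each has 1 array per condition.

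**Figure D2:**
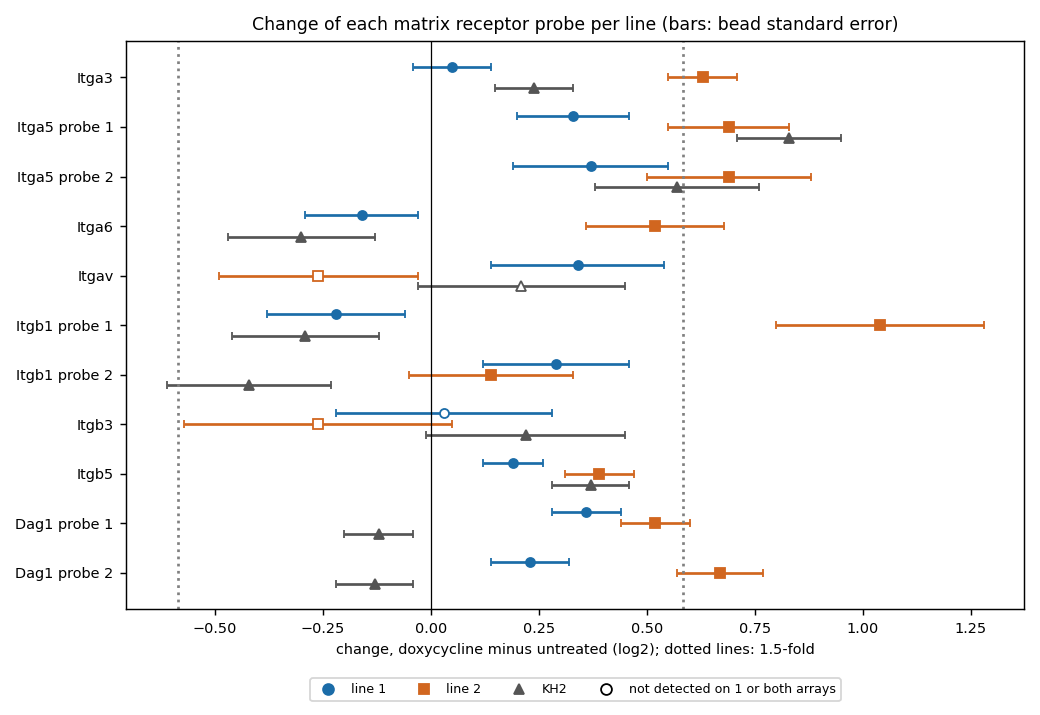
Change with doxycycline (doxycycline minus untreated, log2) of each receptor probe in line 1, line 2 and KH2, with the bead standard error of the difference as the bar and dotted lines at 1.5-fold. Open symbols mark pairs with 1 or both arrays below detection; Dag1 is above 0 in both inducible lines and below 0 in KH2, and Itga5 and Itgb5 are above 0 in all 3.

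The response of the control line was then taken off. Both inducible lines were higher and KH2 was lower for 3 of the 9 receptor probes with a value in every line, both of Dag1 and probe 2 of Itgb1, where 10.2% of all probes were. All 3 lines were higher for 4 of the 9, Itga3, Itgb5 and both of Itga5, where 19.0% were. For Dag1 the Sox17 change minus the KH2 change was 0.56 ± 0.34 (SE) by probe 1, with a 95% interval of -0.27 to 1.39, and 0.58 ± 0.36 by probe 2, with an interval of -0.30 to 1.46. limma gave both an adjusted p of 0.996. The calls over all probes were 0 (0.0%), and 344 probes had an unadjusted p below 0.05 in limma, with 0 calls under trend and robust moderation. These fits do not pair the arrays of a line. With the line as a block, limma called 0 and 1262 probes had an unadjusted p below 0.05. The Dag1 standard errors were then 0.29 and 0.32, with adjusted p of 0.54 and 0.547 in limma, on 1 residual degree of freedom.

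Sox17_dox was then set against KH2_dox, and Sox17_untreated against KH2_untreated. These comparisons share no array with each other, but all their arrays are those of the one above, which is the difference between them. Itga3 was the receptor that stood furthest apart. All 4 arrays of the inducible lines, 10.29 to 10.99, lay below both KH2 arrays, 11.63 and 11.39, and 11.1% of all tested probes showed that order. Itgb3 showed it too, at the detection limit, and no receptor probe the opposite one, which 8.74% did. The order of the Itga3 levels was KH2_dox, KH2_untreated, line 2 Sox17_dox, and then line 2 Sox17_untreated, line 1 Sox17_dox and line 1 Sox17_untreated. The last 3 lay within 0.06, no more than their bead error of 0.06 to 0.07. The difference of the Sox17_dox arrays from KH2_dox was -0.97 ± 0.32 (SE, n = 2 against 1), with a 95% interval of -1.74 to -0.19. That of the Sox17_untreated arrays from KH2_untreated was -1.07 ± 0.32, with an interval of -1.84 to -0.29. Neither passed (limma, adjusted p = 0.433 and 1.00). The difference from KH2_dox was -0.64 without the line 1 Sox17_dox array and -1.29 without that of line 2.

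Neither comparison had a called probe (0 in limma, 0.0%, and 0 under trend and robust moderation), while 1370 probes with the drug and 348 without it had an unadjusted p below 0.05. Itgb3 read lower in Sox17_dox, where neither array detected it, than in KH2_dox, by 1.31-fold when set against the detection limit. That bound rests on 1 KH2_dox array, itself near the limit. The fitted difference was -0.58 ± 0.24 (SE), with an interval of -1.17 to 0.00 (limma, adjusted p = 0.452). It was -0.27 without the background model. Itgb5 differed from KH2 by -0.46 ± 0.26 with doxycycline and by -0.38 ± 0.26 without it, and both intervals held 0. The first of these was -0.30 without the line 1 Sox17_dox array. The 2 Dag1 probes differed from KH2 by 0.22 ± 0.24 and 0.30 ± 0.26 with the drug, and by -0.34 ± 0.24 and -0.28 ± 0.26 without it, with 0 inside each interval. With the drug, these were 0.11 and 0.16 without the line 2 Sox17_dox array. The summed signal of markers of another cell type was, like Itga3, highest on the KH2 arrays: the 8 trophoblast markers, 2 of them (Elf5 and Hand1) detected on no array, summed to 7730 and 14300 signal units in Sox17_dox, 8840 and 12200 in Sox17_untreated, 25700 in KH2_dox and 17400 in KH2_untreated. The keratin genes Krt8 and Krt18, which simple epithelia express in general, made up 50.1% to 85.0% of each sum. Without them the sums were 3860 and 3710 in Sox17_dox, 3530 and 4540 in Sox17_untreated, 3850 in KH2_dox and 4540 in KH2_untreated. These sums no longer followed Itga3, but they rested largely on Tfap2c, which read 11.59 to 12.03 (log2) over the arrays. Krt7, a keratin gene left in these sums, read 9.24 in KH2_dox and 8.04 in KH2_untreated, against 7.11 to 8.02 in the inducible lines. In the same order, Cdx2 (detected on 1 array) read 5.68 and 5.82, against 5.06 to 5.46. Ascl2 (detected on 3 arrays) read 6.02 and 5.87, against 5.16 to 5.81. The part of these markers in the Itga3 difference was not tested.

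**Figure D3:**
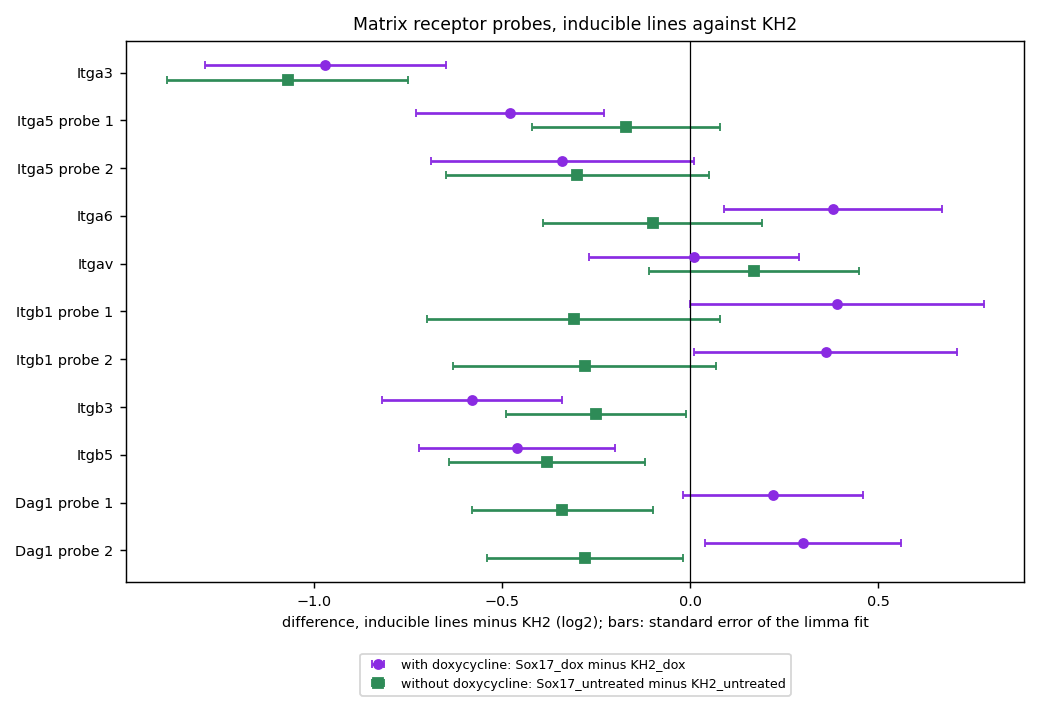
Difference of the inducible lines from KH2 (log2) for each receptor probe, with doxycycline (Sox17_dox minus KH2_dox) and without it (Sox17_untreated minus KH2_untreated), with the standard error of the limma fit as the bar. Itga3 lies near -1 under both conditions, and both Dag1 probes lie above 0 with doxycycline and below 0 without it; the signals of Itgav and Itgb3 include arrays below detection.

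Set against all 4 uninduced arrays together, the induced arrays gave receptor differences between -0.30 ± 0.20 (SE, n = 2 against 4) for Itgb3 and 0.34 ± 0.19 for probe 2 of Dag1. Every interval held 0, as for Itga3 (-0.25 ± 0.40, interval -1.15 to 0.65). Of all probes, limma called 0 (0.0%), as it did under trend and robust moderation, and 945 had an unadjusted p below 0.05. It called 26 without the line 2 Sox17_untreated array, none of them a receptor probe.

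The genes of the matrix ligands of these receptors were at least 1.5-fold higher in both inducible lines for 5 genes. Of 29 laminin, collagen IV, fibronectin and other basement membrane or adhesion protein genes listed, 17 were tested. At least 1.5-fold higher were 8 of 16 genes with a value in line 1, 6 of 17 for line 2 and 0 of 17 for KH2, where 6.17%, 3.53% and 5.75% of all genes were. None was at least 1.5-fold lower. Line 1 had a median change of 0.58 over them, line 2 of 0.42 and KH2 of 0.05. In both lines 5 of 16 were at least 1.5-fold higher, where 1.04% of all genes were, and 0.663% were as much lower. None of the receptor genes was either. The summed endoderm markers were higher with doxycycline in both inducible lines as well, as given above, and Lama1 is in both lists and made up 19.3% to 45.1% of the marker sum. Without Lama1 the markers summed to 3170 and 5600 in Sox17_dox, against 1860 and 3320 in Sox17_untreated, and to 3480 in KH2_dox, against 2690 in KH2_untreated. The sums without Lama1 rested largely on Sparc. It read 11.03 and 11.86 (log2) in Sox17_dox, against 10.25 and 11.30 in Sox17_untreated, and 11.39 in KH2_dox, against 10.94 in KH2_untreated. The other markers detected on all 6 arrays were Gata6, Foxq1 and Dab2. Gata6 read 8.43 and 9.71 in Sox17_dox, against 6.25 and 7.77 in Sox17_untreated, and 6.59 in KH2_dox, against 6.29 in KH2_untreated. In the same order of groups, Foxq1 read 7.13 and 8.17, against 5.84 and 7.07, and 6.74, against 6.45. Dab2 read 8.26 and 8.64, against 8.33 and 7.92, and 8.55, against 8.39. The part of the markers in the ligand values was not tested.

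Of the chains of the laminin typical of early embryo basement membranes, which alpha 6 beta 1 and dystroglycan bind, the alpha chain gene Lama1 was higher by 1.88 in line 1 and 0.37 in line 2. The beta chain gene Lamb1 was higher by at least 0.70 in line 1, where the untreated array was below detection, and by 0.58 in line 2. The gamma chain gene Lamc1 was higher by 0.47 and 0.97. In KH2 these 3 read 0.11, 0.56 and -0.09. The collagen IV chain genes Col4a1 (1.66 and 0.95, with 0.07 in KH2) and Col4a2 (1.27 and 0.90, with 0.50), the laminin linker gene Nid1 (0.97 and 0.71, with -0.11) and the matrix protein gene Fbln2 (1.41 and 1.16, with 0.02) were higher in both lines. The fifth was Tnc, which encodes tenascin C, a matrix glycoprotein. It gave 0.70 and 1.07, and -0.20 in KH2, by the brighter of 2 tested probes. None of these genes passed the test (limma, adjusted p = 0.955 for each). The probe of Vtn, which encodes vitronectin, was detected on no array. Fn1, which encodes fibronectin, had no probe under its symbol in the platform annotation used, so it was not analysed here.

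Other integrin chains were mostly not detected: of 17 on the array, 5 were tested. Itga11, the alpha chain of a collagen receptor that pairs with beta 1, read 8.03 and 8.06 in Sox17_dox, against 6.98 and 7.05 in Sox17_untreated, and 7.91 in KH2_dox, against 7.60 in KH2_untreated. Line 1 was higher by 1.05, line 2 by 1.01 and KH2 by 0.31, which brought the induced arrays slightly above those of KH2. Its limma difference was 1.03 ± 0.19 (SE, n = 2 against 2, adjusted p = 0.955). This rests on 1 probe, since the other 2 were detected on 1 array and on none. Itgae, the alpha chain of an E-cadherin receptor of lymphocytes, differed by -1.20 (line 1), -0.20 (line 2) and -0.05 (KH2). These are values of the brightest of its 3 tested probes, and the others are not given here. Itgb4, the beta chain that joins alpha 6 in the laminin receptor of hemidesmosomes, read 8.98 and 9.94 in Sox17_dox, against 8.95 and 9.83 in Sox17_untreated, and 9.52 in KH2_dox, against 9.42 in KH2_untreated. By this probe, the brighter of 2 tested, Itgb4 was thus detected on every array and differed more between the lines than with the drug. Itgb7 had changes of 0.25, -0.04 and 0.37 in line 1, line 2 and KH2, and Itga2b was detected on 2 arrays.

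Genes listed as integrin adaptors and kinases, not all of them links to the cytoskeleton, were detected on all 6 arrays for each of the 18 tested. At least 1.5-fold higher were 0 of 18 for line 1, 3 for line 2 and 2 for KH2, and 1 was lower in each line, with medians of 0.19, 0.31 and 0.13. Among the 9 tested genes of the dystroglycan complex the medians were 0.13, 0.10 and 0.00, and the genes at least 1.5-fold higher numbered 2, 0 and 0, with 1, 1 and 0 lower. For the 12 tested genes of the enzymes that build the laminin-binding sugar of dystroglycan the medians were 0.19, 0.03 and 0.25, with 2, 0 and 1 genes at least 1.5-fold higher and none lower. Neither list had a gene at least 1.5-fold changed in both inducible lines. Other matrix receptors and tetraspanins, 16 of them tested, had medians of 0.03, 0.39 and 0.35. Those at least 1.5-fold higher numbered 3 (line 1), 2 (line 2) and 3 (KH2), and 1 was lower, in line 2. The heparan sulfate proteoglycan gene Sdc3 was at least 1.5-fold higher in both inducible lines, by 0.65 and 0.90, and by 0.64 in KH2. Across all genes the shares at least 1.5-fold higher were 6.17%, 3.53% and 5.75% in the same order of lines, and those lower 5.7%, 3.05% and 8.93%. limma called none of the genes in these lists.

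**Figure D4:**
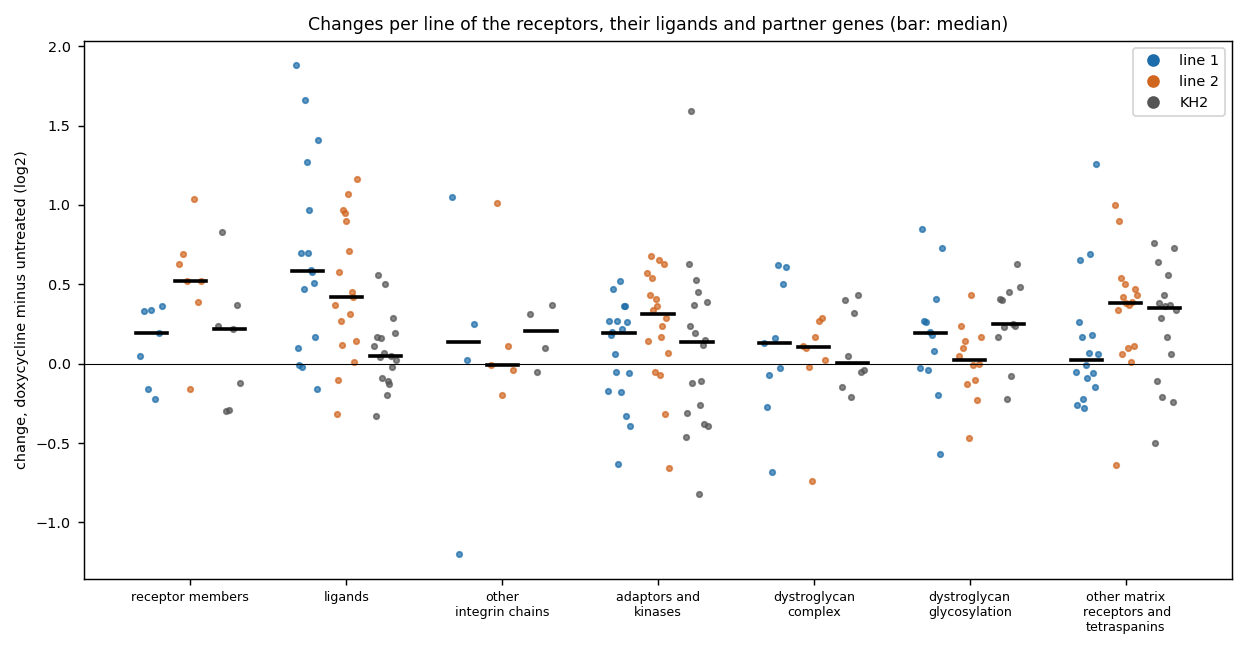
Change with doxycycline (log2) per line for the receptor genes, their ligand genes and 5 lists of partner genes, each gene by its brightest tested probe, with the median as a bar. The ligand genes have medians of 0.58, 0.42 and 0.05 in line 1, line 2 and KH2, and the receptor genes 0.19, 0.52 and 0.22.

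Over the 6 arrays the receptors with the widest range of signal were Itga3 (1.34 on the log2 scale) and Itga5 (1.06 by its brighter probe). The patterns most like that of Itga3 were those of Ets2 (Pearson r = 0.998), Plekhg2 (0.992) and Oxct2b (0.989, detected on 3 arrays). Those most like Itga5 were Tmem116 (0.988, detected on 3 arrays), Mapkapk2 (0.980) and Acads (0.967). With 6 arrays of 1 chip such values describe the arrays only: of 6252 genes with a range of at least 0.5, 30 had an r of at least 0.95 with Itga3 and 8 with Itga5.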

How the data were processed

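Expression was measured on Illumina MouseRef-8 bead arrays, 6 on 1 chip, so no chip batch could be separated. Per the file headers, the deposited table holds for each probe an intensity (the mean over its beads, not normalised as far as the values show), the standard error of that intensity, the count of beads (array medians 38 to 40) and a detection p-value. Another table has the authors' own background-subtracted intensity values. BeadStudio is named per the submitters' processing notes, and the method and its version are not given in the sources used here. On each array these ranked as the raw values did (rank correlation 1.0), and their medians were 25.6 to 34.1; their scaling is unknown. Array signal medians were 109 to 129 in the raw table.

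The raw signal was background-corrected by normexp with an offset of 16, quantile-normalised and set on the log2 scale (neqc, limma 3.58.1, R 4.3.3). A probe was tested if its detection p was under 0.05 on at least 2 arrays. Of the probes, 23978 had 1 symbol in the platform annotation and 1719 had none. Symbols were updated by Entrez number, with 16 probes not matched. Comparisons were limma contrasts of 4 group means with 2 residual degrees of freedom (4 for the comparison with all uninduced arrays), two-sided, with Benjamini-Hochberg adjustment over all tested probes and 0.05 as threshold. KH2 has 1 array per group, assumed to vary as the inducible lines do. Nothing in the labels says that the arrays of a group are separate cultures beyond the line. A change per line sets 1 array against 1, and is a bound where 1 side was below detection. The bound is taken against the lowest normalised signal among the detected probes of that array. The fit of Sox17_dox against Sox17_untreated was run on simulated data with independent noise and no differences between lines. That run does not show how the fits perform on these arrays.

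The labels name the line, so arrays of a line form a pair; the difference between the lines with doxycycline correlated with that without it (r = 0.509 over 12373 probes). The members, the lists and the tests were chosen with earlier results of these data known. Named were all members, 7 ligand genes, up to 4 genes per list at least 1.5-fold changed the same way in both inducible lines, and the 3 genes most like the 2 members of widest range. Tnc, Itgae, Itgb4, Itgb7 and Itga2b were named after their values were seen. So were Acta2, Krt8, Krt18, Lama1, Sparc and Tfap2c, as large shares of a marker sum, and Krt7, Cdx2, Ascl2, Gata6, Foxq1 and Dab2. Alternatives were no background model, the authors' values floored at 16, other filters on dim probes, trend and robust moderation, the line as a block, each array left out, a fold of 2, the mean of probes and a detection p under 0.01.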

Additional observations from a re-analysis of the deposited data

Results flagged for a closer look

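Probes that read higher with doxycycline in both inducible lines and lower in KH2 were both of Dag1 and probe 2 of Itgb1. The Sox17 change minus the KH2 change was 0.56 and 0.58 (log2) for the Dag1 probes and 0.64 for the Itgb1 probe. limma's test of that difference gave each an adjusted p of 0.996, and of 0.504 to 0.547 with the line as a block. The lines were thus not shown to differ from KH2. With an array left out, the Itgb1 value ran from 0.34 (without the line 1 Sox17_dox array) to 0.94 (without that of line 2), and it was 0.36 without the background model. By probe 1 of Itgb1, line 1 and KH2 were both lower with doxycycline, and the difference was 0.70 ± 0.55 (SE), with 0.33 to 1.08 when an array was left out and 0.43 without the background model.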

How the results depend on the processing

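Of 573 alternative fits of receptor probes over the 5 comparisons, 0 passed the threshold, with a smallest adjusted p of 0.355. With the line as a replicate block, limma called 1 probe between Sox17_dox and Sox17_untreated (smallest adjusted p = 0.0437), which was no receptor probe, and the block changed no other call. The comparison with all uninduced arrays gives the same blocked fit, and those with KH2 cannot be blocked by line. With an array left out, calls in the comparison with all uninduced arrays ran from 0 to 26, the highest without Sox17_untreated of line 2. The count of receptor probes at least 1.5-fold higher in line 2 was 3 without background modelling and 1 at a fold of 2, against 5. That in KH2 was 2 in the authors' values and 0 at a fold of 2, against 1. The number of receptor genes detected on every array was 6 at a detection p under 0.01 too. Detection does not use the background model or the authors' values, so these gave no further value.

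Receptor differences near 0 changed sign. In the authors' values Itgav was -0.07 between Sox17_dox and Sox17_untreated and -0.23 between Sox17_dox and KH2_dox. When an array was left out, the difference between Sox17_dox and Sox17_untreated ran from -0.06 to 0.42 for Itga6, from -0.15 to 0.24 for Itgav and from -0.09 to 0.52 for probe 2 of Itgb1. The Sox17 change minus the KH2 change ran from -0.36 to 0.02 for Itgav, -0.22 to 0.42 for Itga3, -0.24 to 0.08 for Itgb5 and -0.38 to 0.30 for probe 2 of Itga5. The difference of Sox17_dox from KH2_dox ran from -0.19 to 0.20 for Itgav and -0.68 to 0.00 for probe 2 of Itga5. That of Sox17_untreated from KH2_untreated ran from -0.34 to 0.14 for Itga6 and -0.69 to 0.06 for probe 1 of Itgb1. The cause was not tested. The number of arrays limits all of these values, and signal over background limits those of Itgav and Itgb3.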
